A study of Mus musculus with 4 samples.

Results

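Type I interferon-stimulated genes are genes whose transcription rises when a cell senses interferon alpha or beta. The list held 38 such genes, chosen by symbol, and 36 of them were among the 31253 features of the matrices; Mx1 and Mx2 were not analysed here. They were read in single immune cells of MC38 tumours, grown under the skin from a mouse line of colon adenocarcinoma, in 4 droplet RNA libraries: 2 carry the label WT and 2 the label Ufl1 cKO. Ufl1 is the enzyme that joins the small modifier UFM1 to its target proteins. Per the labels, each mouse was 8 weeks old when 100000 tumour cells were injected, received no other treatment, and gave its tumour on day 16; the tissue was digested with collagenase, frozen and thawed. Per the title of the series, Ufl1 was ablated in T cells, while the Cre line, the deleted exons and the strain are not in the labels. Nor do the labels tie each library to an animal of its own. P-values therefore measure the spread between these libraries, which may be technical in part. The 2 cKO libraries differed in sex-linked RNA, as given below. Ufl1 was at 16.4 and 16.3 UMIs per 1000000 (CPM) over all cells in the WT libraries and at 17.1 and 18.8 CPM in the cKO libraries. Both cKO libraries thus lay slightly above both WT libraries, which is not the direction of a loss. The wide T gate described below held 4094 of the 32396 cells, so a loss in T cells alone need not show in these levels. Reads at the poly(A) end, where the kit named in the labels reads, need not fall in the deleted part.

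As background, interferon alpha and beta bind the receptor pair Ifnar1 and Ifnar2 on nearly every nucleated cell. The kinases Jak1 and Tyk2 then phosphorylate transcription factors such as Stat2, which joins Irf9 in a complex that binds the interferon-stimulated response element, and the genes under such elements make proteins that bind viral RNA, degrade it, stop its translation or mark proteins with the ubiquitin-like Isg15. In tumours these genes are known to be switched on by tumour DNA that reaches sensing pathways of myeloid cells, and interferon gamma, made by T and NK cells, induces part of the same genes.

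The response element has at its core a pair of TTTC blocks, and the letters TTTCNNTTTC (GAAANNGAAA on the other strand) were searched on both strands, with overlapping matches allowed, in RefSeq promoter windows of GRCm38.p6 that run from 250 bases before to 50 bases after each start. A window was found for 28 of the 36 members. Of these, 14 (50%) held the motif, against 3.99% of the 27025 genes with a window and 3.44% of all 32851 windows; a match is a description of letters and not a measured site. Members without a match in their windows include Ifit2, Slfn4, Oasl1 and Irf7, which also stand out in the results below. The 200 bases that end at the base before the start are shown for 6 of the 14 members with the motif. Of these 6, 3 have windows in the IFIT cluster on chromosome 19, and every whole match of the motif is in capitals.
Isg15 (chr4:156200819-156201018, minus strand): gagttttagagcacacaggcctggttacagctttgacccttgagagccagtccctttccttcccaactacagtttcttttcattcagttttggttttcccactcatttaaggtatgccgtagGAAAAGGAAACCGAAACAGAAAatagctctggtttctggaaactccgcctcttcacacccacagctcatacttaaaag
Ifit1 (chr19:34640689-34640888, plus strand): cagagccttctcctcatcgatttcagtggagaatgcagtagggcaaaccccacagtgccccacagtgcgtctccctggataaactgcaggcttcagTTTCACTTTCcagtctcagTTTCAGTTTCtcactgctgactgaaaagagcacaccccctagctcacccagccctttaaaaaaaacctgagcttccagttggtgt
Ifit3 (chr19:34583329-34583528, plus strand): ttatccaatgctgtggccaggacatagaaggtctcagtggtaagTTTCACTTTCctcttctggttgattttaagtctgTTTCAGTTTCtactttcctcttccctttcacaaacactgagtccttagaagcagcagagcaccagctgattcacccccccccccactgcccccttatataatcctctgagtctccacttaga
Ifit3b (chr19:34607757-34607956, plus strand): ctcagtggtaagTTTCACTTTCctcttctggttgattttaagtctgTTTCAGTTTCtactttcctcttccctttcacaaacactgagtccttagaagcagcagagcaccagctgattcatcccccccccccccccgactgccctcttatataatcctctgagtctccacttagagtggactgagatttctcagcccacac
Rsad2 (chr12:26456453-26456652, minus strand): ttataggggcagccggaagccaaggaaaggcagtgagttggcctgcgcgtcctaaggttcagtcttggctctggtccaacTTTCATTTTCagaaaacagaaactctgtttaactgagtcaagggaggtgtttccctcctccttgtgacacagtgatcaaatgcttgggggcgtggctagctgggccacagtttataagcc
Oas1a (chr5:120907526-120907725, minus strand): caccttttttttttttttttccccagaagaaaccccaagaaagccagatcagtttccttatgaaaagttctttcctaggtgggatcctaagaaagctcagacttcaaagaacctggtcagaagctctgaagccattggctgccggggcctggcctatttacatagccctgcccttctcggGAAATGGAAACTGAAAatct
The windows of Ifit3 and of its near copy Ifit3b were identical at 258 of 300 aligned bases. Reads of such near copies (Ifit3 and Ifit3b, Ifit1 and Ifit1bl1, the Oas1 genes, and the Slfn and Trim30 families) could be split or dropped in the counting, so their separate levels are uncertain. By GENCODE M21, which holds 31107 of the 31253 feature identifiers, 5 members (the IFIT genes) lie on chromosome 19, 5 (the OAS genes) on chromosome 5 and 7 on chromosome 11.

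The 4 libraries held 7352, 9466, 7885 and 8098 cell barcodes (both WT libraries first, by replicate number, then both cKO libraries, an order kept throughout) with 64141857 to 79747752 UMIs, each UMI a single captured RNA molecule. After 405 barcodes with under 300 genes or over 15% mitochondrial UMIs were left out, there were 32396 cells, and the median cell of each library had 7488, 7287, 7584 and 8668 UMIs. The leukocyte gene Ptprc (CD45) had a UMI in 85.0% of them, and by the gates described next in 54.7% of migratory DC, 54.8% of macrophages and 98.9% of NK cells. WT replicate 1 and cKO replicate 2 shared 479 barcodes, against 85 to 104 in the other pairs. Of the 471 kept in both, 379 had under 1000 UMIs in 1 of the libraries, at a median of 600 UMIs against 24498 in the other. cKO replicate 2 also stood apart in its sex-linked RNA, with the X-inactivation transcript Xist at 297 CPM against 0.906, 0.299 and 0.126 CPM, and the Y-linked Ddx3y at 0.151 CPM against 50.9, 51.0 and 47.4 CPM. High Xist with little Ddx3y is the pattern of female cells, and the other libraries had the male pattern. The part of sex in the comparison of cKO with WT was not tested. For these reasons the main results are also given without cKO replicate 2, and the barcodes shared by the pair were left out in an alternative.

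Cells were sorted into 14 gates by markers that include no interferon-stimulated gene. A gate needed at least 2 UMIs of a lineage's markers and fewer than 2 of each other lineage's. As an exception, the non-classical monocyte markers were left free in the monocyte, monocyte-macrophage and macrophage gates, which can therefore hold cells positive for them. The gates held 1691 CD8 T, 506 CD4 T, 298 regulatory T (Treg), 255 gamma-delta T, 3833 NK, 917 B, 5422 monocyte (Vcan, F13a1, Chil3), 708 non-classical monocyte (Ace, Treml4), 2398 monocyte-macrophage (monocyte and C1q genes together), 5753 macrophage (C1q genes without monocyte genes), 286 cDC1, 875 cDC2, 322 migratory dendritic (DC) and 288 plasmacytoid dendritic (pDC) cells. All cells positive for Cd3 genes and no other lineage made up a wider T gate of 4094 cells. These gates took in 24896 cells (76.8%); 3316 were positive for no lineage, and 4184 were positive for lineages that exclude each other or for neutrophil, mast cell or basophil genes. Markers outside the lineage definitions were also read. Cd8a and Cd8b1, which serve to define the T subset gates, and the NK gene Klre1 together had a UMI in 50.5% of the wide T gate. The macrophage genes Apoe, Mrc1 and Adgre1 had one in 11.8% of it, at 82.2, 59.7, 190.6 and 52.1 CPM, highest in cKO replicate 1. The B gene Cd79b had a UMI in 4.74% of the same cells. The part of macrophage and B cell RNA in the T cell results was not tested, and no doublet caller was run.

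The interferon-stimulated genes were read most in monocytes and least in NK cells. Summed over the 36 genes, the level in the monocyte gate was 11525, 13617, 15226 and 20609.9 CPM (15244 ± 3885, SD, n = 4 libraries), and in the monocyte-macrophage gate 11040, 13671, 15341 and 20387 CPM. In NK cells it was 1746, 2170, 2241 and 3227 CPM. The lowest monocyte library lay above the highest NK library by more than the SD over libraries of either gate. The non-classical monocyte gate (11937 ± 3075 CPM) and the macrophage gate (10009.5 ± 2398 CPM) came next, then cDC2 (9334 ± 1645), pDC (9248 ± 1875), Treg (9118 ± 2933) and CD4 T (8702 ± 1133), whose neighbours in this order did not differ beyond their spread. Lower were cDC1 (6580 ± 1324), migratory DC (6426 ± 2816), CD8 T (5533 ± 1269), gamma-delta T (4513 ± 1164) and B cells (3301 ± 819). A single gene made up much of the sum in Treg (Ifi27l2a, mean 4625 CPM) and in pDC (Bst2, mean 3972 CPM).

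**Figure D1:**
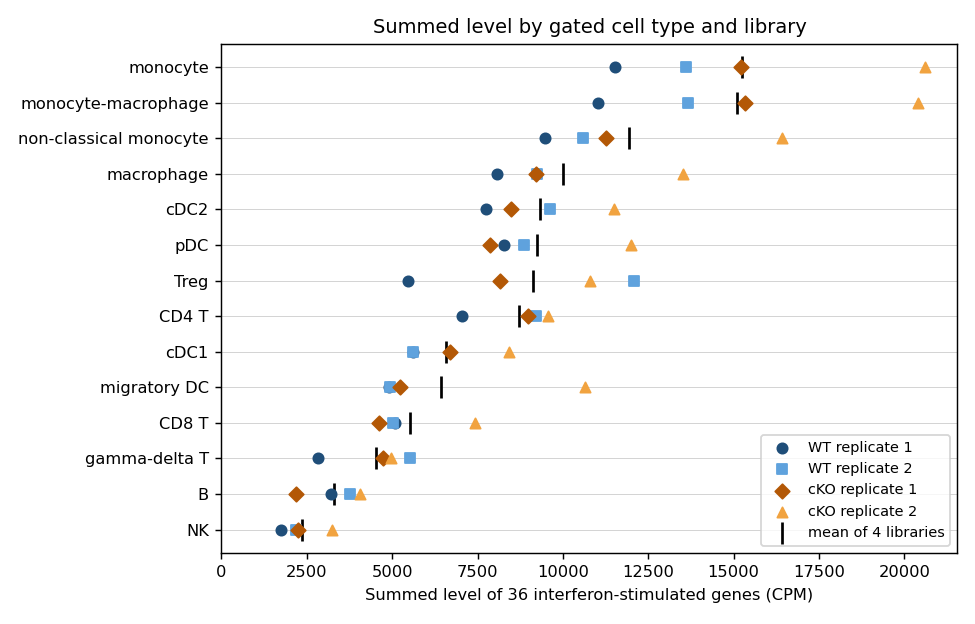
Summed level of the 36 interferon-stimulated genes (CPM, linear axis from 0) in each gate, with gates down the vertical axis, 1 marker per library and a black bar at the mean of the 4 libraries. cKO replicate 2 is the highest library in every gate except Treg and gamma-delta T, and the monocyte and monocyte-macrophage gates lie highest, at means of 15244 and 15110 CPM.

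Each gate was then set against the mean of the other 13 gates in 1 fit with the library as a block, over 10428 genes (edgeR's quasi-likelihood test with Benjamini-Hochberg adjustment, threshold 0.05). Because the gates contrast very different cells, a large share of all genes passed in each direction, and the members' counts stand beside that share. In monocytes 35 of the 36 members were higher and 0 lower, where 38.1% of all genes were higher and 32.1% lower (median log2 difference of the members 1.61). In monocyte-macrophages all 36 were higher and 0 lower (36.6% and 27.1% of all genes, median 1.41). Non-classical monocytes had 33 higher and 0 lower (29.7% and 19.3%, median 1.18), cDC2 34 and 0 (30.9% and 18.3%, median 0.73), and macrophages 26 and 4 (39% and 28.8%, median 0.66). The opposite held in NK cells, with 1 member higher and 34 lower (37.4% and 27.9%, median −1.57), in B cells, with 1 and 33 (26.8% and 27%, median −1.15), in CD8 T cells, with 0 and 26 (34.7% and 28.5%, median −0.57), and in gamma-delta T cells, with 0 and 25 (19.9% and 20.1%, median −0.78).

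Between these lay the gates in which the members split. Treg cells had 1 member higher and 19 lower (23.1% and 21% of all genes), pDC 5 and 20 (21.9% and 17.9%), cDC1 11 and 11 (27.9% and 19.7%), CD4 T cells 7 and 10 (24.3% and 21%) and migratory DC 7 and 3 (25.5% and 21.7%). These splits depended on the scaling: with library totals alone, under which the median of all genes was 0.24 in CD4 T, 0.32 in Treg, 0.22 in CD8 T and −0.27 in migratory DC cells, they became 16 and 3 in CD4 T (37.7% and 11.6% of all genes), 6 and 13 in Treg (40.4% and 9.4%) and 5 and 9 in migratory DC (20.5% and 31.3%). With the usual scaling these medians were −0.01, −0.03, 0.03 and −0.07. Stricter gates gave 9 and 5 in CD4 T (22.6% and 14.8%) and 6 and 8 in migratory DC cells (26.1% and 23.3%). Without cKO replicate 2 the counts were 8 and 2 in CD4 T (23.9% and 15%) and 5 and 7 in migratory DC (23.9% and 18.7%). So neither the CD4 T nor the migratory DC split has a direction that holds under every setting.

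**Figure D2:**
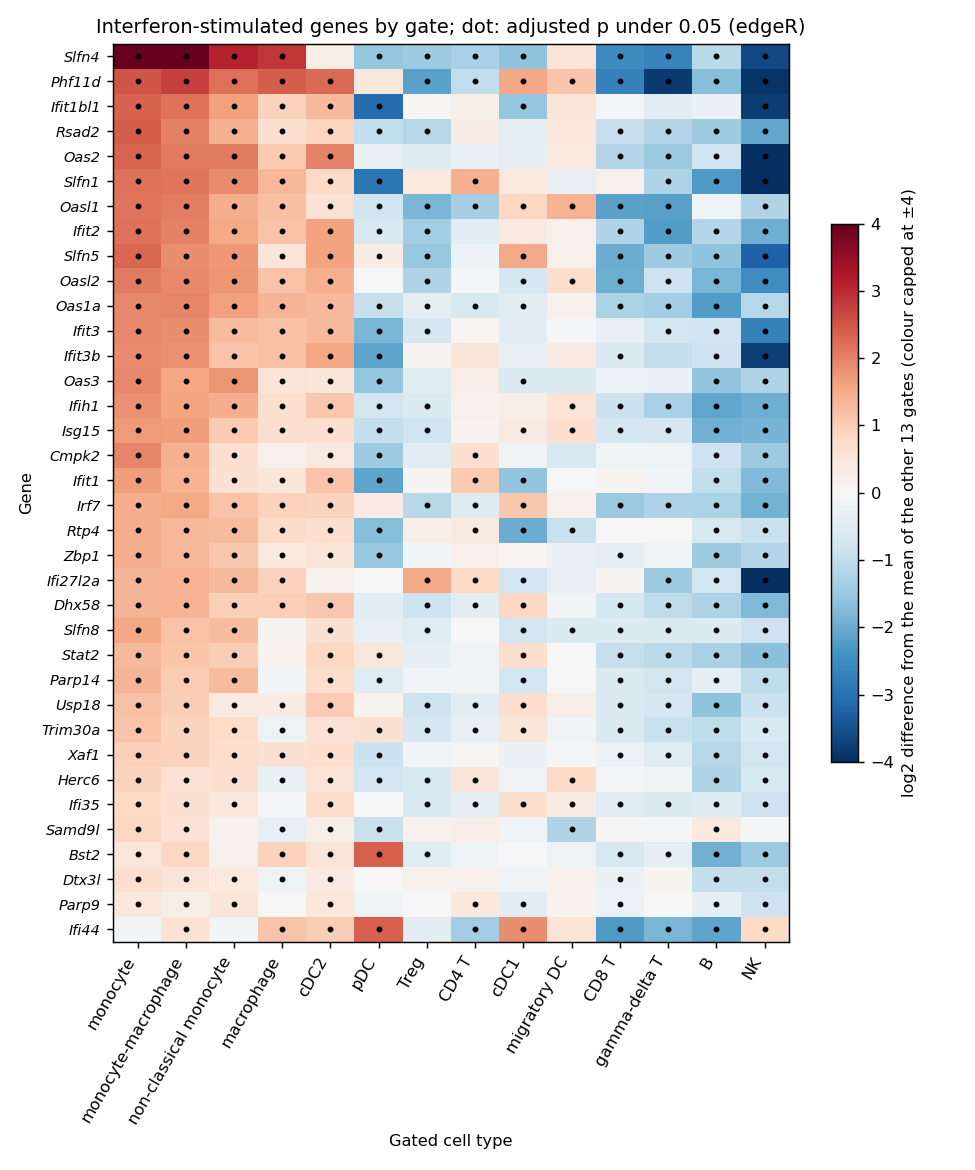
Log2 difference of each of the 36 interferon-stimulated genes (vertical) in each gate (horizontal) from the mean of the other 13 gates, on a colour scale centred at 0 and capped at 4 either way, with a dot where edgeR's adjusted p was under 0.05. Monocyte, monocyte-macrophage and non-classical monocyte columns are positive for nearly every gene and the NK and B columns negative, while Bst2 and Ifi44 are highest in pDC and Ifi27l2a in Treg.

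Taken by role, the IFIT genes, whose products bind viral RNA that lacks the host's cap marks, were highest in monocytes. Ifit3 was at 335, 411, 505 and 794 CPM there and at 23.4, 29.9, 32.4 and 42.6 CPM in NK cells, without overlap. Its log2 difference from the other gates was 1.93 ± 0.16 (SE) in monocytes and −2.69 ± 0.25 in NK cells. Ifit2 had 2.16 ± 0.12 and Ifit1bl1 2.37 ± 0.13 in monocytes. Ifit1 was the member of this family that T cells shared with monocytes: it was at 121, 285, 187 and 190 CPM in CD4 T cells and at 136, 193, 203 and 389 CPM in monocytes, and these ranges overlapped. In CD4 T cells it was higher than in the other gates (1.05 ± 0.23, adjusted p = 0.000196 by edgeR's quasi-likelihood test with Benjamini-Hochberg adjustment), while in the same cells Ifit2 was not called (−0.45 ± 0.21). In pDC, Ifit1 was at 14.3, 7.69, 0 and 75.7 CPM, lower than in the other gates (−2.11 ± 0.40), with cKO replicate 2 far above the other libraries.

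The OAS genes make 2′-5′-linked oligoadenylates that activate RNase L, or, for the OAS-like Oasl1, act without making them. Oas1a was at 322, 303, 395 and 425 CPM in monocyte-macrophages and at 39.8, 25.5, 15.8 and 34.8 CPM in B cells. Oas2 showed a very wide range: 70.4, 73.9, 74.7 and 113 CPM in monocytes and 0.889, 0.739, 1.14 and 0.367 CPM in NK cells (29 UMIs in all), a log2 difference from the other gates of 2.34 ± 0.08 and −4.98 ± 0.22. The ratio of its highest to its lowest gate mean was 106. Oasl1, known in mice to hold back translation of Irf7, was also high in migratory DC, at 98.5, 103, 273 and 355 CPM (1.38 ± 0.19), and there both cKO libraries lay well above both WT libraries. In CD4 T cells it went the other way, at 72.6, 58.4, 34.8 and 33.5 CPM.

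Rsad2 (viperin, an enzyme that makes a chain-terminating nucleotide) and its neighbour Cmpk2, a mitochondrial nucleotide kinase, were likewise led by monocytes. Rsad2 was at 449, 525, 541 and 1031 CPM there (2.42 ± 0.15), and at 84.5, 118, 16.9 and 57.3 CPM in B cells (−1.42 ± 0.28), where cKO replicate 1 was the lowest library. Cmpk2 was called higher in CD4 T cells too, by 0.68 ± 0.18.

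Isg15, the ubiquitin-like modifier itself, was at 1644, 2231, 2384 and 3291 CPM in monocytes and at 231, 408, 76.1 and 437 CPM in B cells. The lowest library was WT replicate 1 in monocytes and cKO replicate 1 in B cells, and the ranges of the gates did not overlap. Usp18, which removes Isg15 from proteins and also blocks Ifnar2 signalling, was at 196, 246, 307 and 478 CPM in monocytes (1.19 ± 0.11). It was lowest in B cells, at 55.8, 67.3, 35.9 and 85.9 CPM. Herc6, the mouse ligase for Isg15, had its highest mean in CD4 T cells (103, 155, 117 and 139 CPM; 0.53 ± 0.12), overlapping the monocyte libraries.

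Among the transcription factors, Irf7, which amplifies interferon alpha production, was at 1032, 1256, 1478 and 1988 CPM in monocyte-macrophages (1.53 ± 0.13). In pDC, known to hold Irf7 at rest, it was at 663, 797, 547 and 1349 CPM and was not called (0.32 ± 0.16), and cDC1 had 1.08 ± 0.14. Stat2 was at 133, 152, 172 and 238 CPM in monocytes and 26.0, 25.3, 35.4 and 40.2 CPM in NK cells, with no overlap. It was among the 5 members called higher in pDC (0.46 ± 0.14). Of the RNA and DNA sensors, Ifih1 (MDA5) was at 167, 190, 219 and 309 CPM in monocytes (1.83 ± 0.08) and Zbp1 at 404, 478, 508 and 581 CPM (1.46 ± 0.10). Dhx58 (LGP2) differed from the other gates by 1.38 ± 0.07 in monocyte-macrophages and by −1.75 ± 0.10 in NK cells.

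Of the Schlafen genes, Slfn4 separated cell types most and Slfn8 least, with a ratio of highest to lowest gate mean of 4.12. Slfn4 was at 326, 265, 330 and 439 CPM in monocytes and at 2.58, 1.85, 1.75 and 2.39 CPM in NK cells. That is a log2 difference from the other gates of 4.56 ± 0.11 and −3.62 ± 0.34 and a ratio of highest to lowest gate mean of 159, the largest of the 36. In cDC2, which otherwise had 34 members called higher, Slfn4 was not called (0.26 ± 0.22). Slfn1 was high in both monocytes and CD4 T cells: 157, 199, 165 and 223 CPM in CD4 T (1.43 ± 0.15), overlapping the 176 to 267 CPM of monocytes, against 2.93, 5.91, 5.17 and 7.71 CPM in NK cells. Slfn5 was called higher in pDC (0.30 ± 0.12) and cDC1 (1.53 ± 0.10) as well as in the monocyte gates, and was at −3.25 ± 0.13 in NK cells.

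Several effectors did not follow the monocyte pattern. Bst2 (tetherin), which holds budding virus at the membrane and is a known surface marker of mouse pDC, was at 3754, 3801, 4342 and 3993 CPM in pDC, and no pDC library overlapped the macrophage gate, its second highest (1062, 1264, 1207 and 1578 CPM). It was the only member for which every library of the highest gate lay above every library of the second. Ifi27l2a was highest in Treg cells at 2544, 6283, 4755 and 4919 CPM (1.52 ± 0.14) and lowest in NK cells at 71.4, 96.8, 71.3 and 153 CPM (−4.28 ± 0.23). WT replicate 1 was the low Treg library and overlapped the monocyte-macrophage range. Ifi44 was highest in pDC at 51.4, 41.0, 68.0 and 99.9 CPM (2.40 ± 0.29), was the single member called higher in NK cells (0.79 ± 0.18; 13.2, 24.6, 17.8 and 33.2 CPM), and was the 1 member not called in monocytes (−0.12 ± 0.19).

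Samd9l, a translation inhibitor, was the only member called higher in B cells (0.40 ± 0.13, adjusted p = 0.00897 by edgeR), where its level, 74.9, 94.6, 81.4 and 99.9 CPM, overlapped that of monocytes. After Slfn4, Phf11d had the largest difference from the other gates in macrophages and in monocyte-macrophages (2.43 ± 0.13 and 2.73 ± 0.13). It was at 167, 195, 244 and 324 CPM in monocyte-macrophages and at a mean of 3.79 CPM in NK cells. Rtp4, which in mice holds back flavivirus replication, was the lowest of cDC1 members by this measure (−1.97 ± 0.20) while Rtp4 in CD4 T cells was called higher (0.36 ± 0.15). The partners Dtx3l and Parp9, a ubiquitin ligase and its ADP-ribosyl partner, varied little, with ratios of highest to lowest gate mean of 2.47 each, and Ifi35 had the smallest ratio, 2.24. Of the remaining members, Oasl2 (2.07 ± 0.09), Oas3 (1.91 ± 0.09), Ifit3b (1.88 ± 0.12), Slfn8 (1.54 ± 0.06), Parp14 (1.36 ± 0.08), Trim30a (1.14 ± 0.07) and Xaf1 (0.95 ± 0.08) were each called higher in monocytes. Trim30a, a regulator of Toll-like receptor signalling in mice, was also called higher in pDC (0.62 ± 0.09).

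In all, 22 members had their highest mean in monocytes and 7 in monocyte-macrophages (Isg15, Oas1a, Irf7, Xaf1, Slfn1, Dhx58, Phf11d); the other 7 peaked in CD4 T (Herc6, Parp9), Treg (Ifi27l2a, Dtx3l), pDC (Ifi44, Bst2) and cDC1 (Ifi35). Apart from Bst2, the range over libraries in the top gate overlapped the range in the second, which does not compare the gates within each library.

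Within a gate, cells differed widely in how many of the 36 genes they carried. With every cell thinned to 3000 UMIs, and shallower cells left out (252 in monocytes, 1671 in macrophages, 408 in NK cells and 307 in B cells), a monocyte had UMIs of 12.4, 13.7, 14.6 and 17.8 of the 36 genes on average and an NK cell of 3.62, 4.64, 4.48 and 6.14. The ratio of the 2 gates within a library was 3.13 ± 0.25 (SD, n = 4 libraries), so it varied less than the levels did. Monocytes ranged from 4 genes at the 10th percentile to 22 at the 90th in WT replicate 1 and from 8 to 28 in cKO replicate 2, and the highest cell of a library held 31 to 35. At least 10 of the genes were seen in 70.7% of monocytes (59.7% to 84.2% by library), 42.4% of macrophages, 29.0% of all T cells, 14.1% of NK cells (8.76% to 22.6%) and 10.2% of B cells. Cells with none were 0.0234% of monocytes, 6.16% of NK cells and 4.37% of B cells. For a single gene, Slfn4, a UMI was seen in 38.8% of thinned monocytes and 0.46% of thinned NK cells, the latter a level that free RNA could reach; the unthinned shares were 55.0% and 1.34%.

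**Figure D3:**
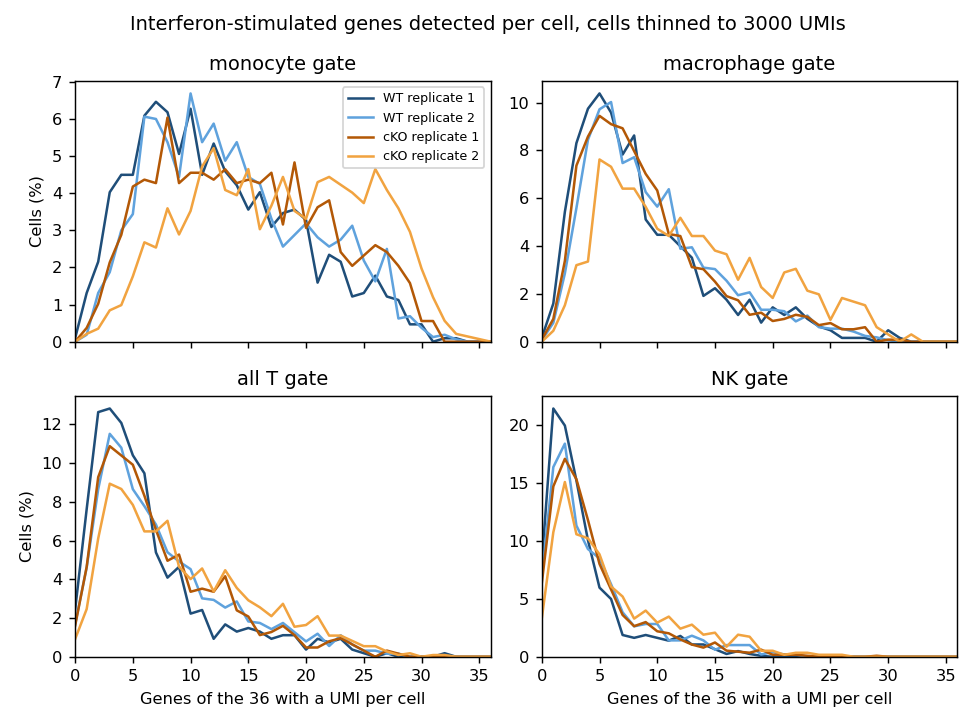
Percent of cells (vertical) by the number of the 36 interferon-stimulated genes with a UMI per cell (horizontal) after thinning to 3000 UMIs, in selected gates with 1 line per library. Monocyte distributions are broad and shift to the right in cKO replicate 2, at a mean of 17.8 genes against 12.4 to 14.6 in the other libraries, and NK distributions peak at low numbers with a tail.

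The spread was larger than that of a reference list of 14 proteasome subunits, the parts of the complex that degrades proteins in every cell. The variance of the summed member UMIs was 30.8 times their mean in monocytes, 24.8 in all T cells, 13.4 in NK cells and 9.57 in pDC, the lowest, where the proteasome genes had 1.22 to 2.20 over all gates. Counting error alone gives a value of 1. At an equal relative spread the value rises with the mean, so it does not rank gates or lists of unlike level. The mean summed level was 15244 CPM in monocytes and 2346 CPM in NK cells. The tenth of cells with most member UMIs held 29.1% of them in monocytes, 41.9% in NK cells and 44.7% in B cells, against 16.8% to 19.7% for the proteasome genes. The member UMIs were thus held by fewer cells in NK and B cells than in monocytes, and in pDC the share was 22.9%, the lowest of the gates. In pDC, Bst2 alone was at 3754 to 4342 CPM of a summed level of 7876 to 11995 CPM, and it had UMIs in 99.3% of thinned cells.

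The genes were detected together. In monocytes, Ifit3 had a UMI in 81.6% of the cells with Ifit1 (76.3% to 85.5% by library) and in 23.2% of those without (17.0% to 31.6%). The same pair gave 75.2% and 22.0% in macrophages, 59.9% and 10.8% in all T cells, and 41.7% and 4.76% in NK cells. Rsad2 and Cmpk2 gave 49.3% and 8.62% in monocytes. Over pairs of members that were each detected in 5% to 95% of the cells of a library and gate, 171 to 630 pairs, the median phi coefficient (the correlation of 2 detections over cells) was 0.145 to 0.202 as a mean over libraries, against 0.002 to 0.054 for pairs of proteasome subunits; these are descriptions over cells that share a library and equal depth.

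As a measure of how far each member follows the others, its detection in a thinned cell was correlated over monocytes with the number of other members detected. Detection in nearly all or in few cells limits this measure: Ifi27l2a was detected in 89.4% of thinned monocytes and Ifi44 in 2.37%. Ifit3 (mean r 0.69 over 4 libraries), Ifit2 (0.65), Rsad2 (0.65) and Ifit1 (0.60) were highest, and Ifi27l2a (0.07), Ifi44 (0.14) and Parp9 (0.19) lowest. In all T cells Ifit3 (0.63), Ifit1 (0.60) and Rsad2 (0.59) were highest, while Ifit2 was at 0.39. NK cells were led by Usp18 (0.50), Rsad2 (0.49) and Rtp4 (0.48), and Bst2 was among the lowest in macrophages (0.11). Members with the TTTCNNTTTC motif had a median r of 0.41 in monocytes, and those without it 0.42.

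The genes outside the list whose level across cells was most like the members' sum were ranked by the lowest of the 4 library values. In monocytes (5170 cells) Ms4a4c (r 0.59 to 0.62), Phf11b, Fcgr1, Ifi205 and Isg20 came first, and in macrophages (4082 cells) Ifitm3 (0.55 to 0.64) and Ms4a4c. NK cells (3425 cells) had Ifi203 and Ifi209 among the first. All T cells (3518 cells) were led by Isg20 (0.47 to 0.57) and Phf11b, and B cells (610 cells) by Tor3a (0.37 to 0.56).

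On the side of the ligands, Ifnb1, the gene for interferon beta, had 390 UMIs in 61 of 32396 cells, and 215 of them (55.1%) lay in a single monocyte-macrophage of cKO replicate 2. By library it was found in 7, 25, 11 and 18 cells. Its level was 0.141, 1.27, 0.294 and 3.29 CPM, and 0.590 CPM in cKO replicate 2 without that cell, which puts WT replicate 2 highest. Macrophages held 27 of the 61 cells, monocyte-macrophages 10 and monocytes 5. Of the Ifna genes on the list, 12 of 13 had 0 UMIs, which allows a share of up to 0.00926% of cells with a UMI each, and Ifna2 had 4 UMIs in 3 cells. Among monocytes, macrophages and their mixed and non-classical gates, the 43 cells with Ifnb1 (3, 16, 8 and 16 by library) carried a median of 165, 172, 119 and 192 member UMIs per 10000, against 66.7, 80.7, 81.4 and 133 in the cells without.

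Of the receptor genes, both had their highest mean in pDC and not in monocytes. Ifnar1 was at 263, 195, 287 and 148 CPM in pDC (1.43 ± 0.09) and Ifnar2 at 503, 423, 627 and 479 CPM (1.95 ± 0.07). Ifnar2 was lower in NK cells (−1.08 ± 0.07) and B cells (−1.48 ± 0.10) and higher in macrophages (1.21 ± 0.06). Jak1 was higher in NK cells (1.30 ± 0.06). For the list counts that follow, 38.1% of all genes were higher and 32.1% lower in monocytes, and 37.4% and 27.9% in NK cells. Of the list of 10 receptor and signalling genes, 9 were higher and 0 lower in monocytes, and 1 higher and 7 lower in NK cells. Of the 14 sensing and induction genes tested, 12 were higher and 1 lower in monocytes and 4 and 8 in NK cells. Tlr3 was highest in cDC1 (5.28 ± 0.22) and Tlr7 in pDC (3.48 ± 0.19), whose member levels were below those of monocytes. Of the 54 other interferon-induced genes tested, 46 were higher and 2 lower in monocytes, and 1 higher and 45 lower in NK cells.

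Libraries differed in level in a way that most members shared. Over the 485 pairs of a member and a gate with at least 40 UMIs, cKO replicate 2 was the highest library in 404 (83.3%), WT replicate 2 in 47, cKO replicate 1 in 18 and WT replicate 1 in 16; over all genes, cKO replicate 2 was highest in 16.1% to 37.4% of genes by gate. In 6 gates (CD8 T, monocyte, non-classical monocyte, monocyte-macrophage, macrophage and cDC2) it was highest for all 36 members. Its lowest shares were in gamma-delta T cells, where it was highest for 7 of 31 and WT replicate 2 for 18, and in B cells, 18 of 35. The summed level of cKO replicate 2 was 1.53 times the mean of the other 3 libraries in monocytes, monocyte-macrophages and macrophages, 1.57 in NK cells, 1.51 in CD8 T cells and 2.12 in migratory DC. By the same sum, cKO replicate 1 was 1.21 times the WT mean in monocytes, 1.24 in monocyte-macrophages, 1.14 in NK cells and 1.06 in macrophages, but 0.914 in CD8 T cells, 0.92 in pDC and 0.631 in B cells. The 2 cKO libraries therefore lay on the same side of WT in some gates and on opposite sides in others. The summed level of the macrophage genes Apoe, Mrc1 and Adgre1 was lowest in cKO replicate 2 in the gates of this lineage: 1407, 1157, 1314 and 899 CPM in monocytes, 1600, 1919, 2250 and 950 CPM in non-classical monocytes, 2744, 3060, 3400 and 2131 CPM in monocyte-macrophages and 5814, 7020, 7147 and 4783 CPM in macrophages. Its part in the member levels was not tested.

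The comparison of cKO with WT asks whether loss of Ufl1, placed in T cells by the title, goes with a different interferon response in the tumour's immune cells. No member passed the threshold in any of the 15 gates (edgeR's quasi-likelihood test with Benjamini-Hochberg adjustment over all genes of the gate). In 13 gates 0% of all genes passed, of 5616 to 11087 tested, with 110 to 517 genes at an unadjusted p under 0.05; in monocyte-macrophages 1 of 10294 genes passed (0.00971%) and in migratory DC 1 of 5347 (0.0187%). DESeq2 called 3 members, Ifi44 and Cmpk2 in monocyte-macrophages, where it called 0.126% of genes, and Oasl1 in migratory DC, where it called 0.0561%. Most members nevertheless lay on the same side. All tested members had a log2 fold change above 0 in the wide T gate, monocytes, non-classical monocytes, monocyte-macrophages and macrophages (36 of 36 each). In NK cells 33 of 35 did, and the median over all genes was −0.01 to 0.01 in these gates. The 4 libraries place a summed level of cKO wholly above WT in 7 gates (all T, NK, monocyte, non-classical monocyte, monocyte-macrophage, cDC1 and migratory DC), each with an exact permutation p of 0.33, two-sided, the smallest that 2 against 2 libraries can give. Where a library is left out below, its group keeps 1 library, which is assumed to vary like the other group. Calls in such a fit cannot be told apart from a trait of that library.

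Of the gates, monocyte-macrophages had the most members at an unadjusted p under 0.05, 31 of 36. By edgeR 0 of them passed after adjustment, where 0.00971% of all genes passed. Ifi44 was at 7.37, 8.64, 15.9 and 32.5 CPM, a log2 fold change of 1.63 ± 0.30 (adjusted p = 0.198 by edgeR, 0.00767 by DESeq2), and Ifit1bl1 at 46.2, 49.2, 71.3 and 147 CPM (1.22 ± 0.26). Cmpk2 was at 92.2, 107, 143 and 230 CPM (0.92 ± 0.20; adjusted p = 0.269 by edgeR, 0.047 by DESeq2). In each, both cKO libraries lay above both WT libraries, and cKO replicate 2 was the higher. Herc6 (0.65 ± 0.16) and Phf11d (0.67 ± 0.17) followed. Both cKO libraries lay above both WT libraries for 30 of 36 members, against 15.6% of all genes. The median of the 36 was 0.51 against 0.00 for all genes, and 0.28 without cKO replicate 2. Without cKO replicate 1 edgeR called 15 members higher (0.797% of genes called), led by Ifit1bl1, Ifi44 and Cmpk2.

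In monocytes Phf11d had the smallest p. Phf11d was at 140, 160, 207 and 277 CPM (0.68 ± 0.17, adjusted p = 0.964 by edgeR), Oasl1 at 200.5, 258, 332 and 489 CPM (0.82 ± 0.22) and Usp18 at 196, 246, 307 and 478 CPM (0.81 ± 0.23). Herc6 and Ifit3 were the others of the 5 with the smallest p (0.61 ± 0.17 and 0.79 ± 0.24). In all 5, cKO replicate 1 lay between WT replicate 2 and cKO replicate 2. Both cKO libraries were above both WT libraries for 34 of 36 members, against 15.8% of all genes, and 22 members had an unadjusted p under 0.05. The median log2 fold change was 0.47, and 0.29 without cKO replicate 2, with 35 of 36 members still higher; without cKO replicate 1, 7 members were called (0.348% of genes).

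In macrophages all 36 log2 fold changes were also above 0, with more overlap between the groups. Rsad2 was at 150, 157, 201 and 337 CPM (0.79 ± 0.21), Oasl1 at 113, 155, 186 and 289 CPM (0.80 ± 0.23) and Ifit2 at 119, 138, 163 and 293 CPM (0.81 ± 0.24), each with an adjusted p of 1 by edgeR. In these 3 genes cKO replicate 1 lay nearer to WT replicate 2 than to cKO replicate 2. Both cKO libraries lay above both WT for 16 of 36 members, against 11.9% of all genes. The median fell from 0.42 to 0.11 without cKO replicate 2, and 7 members were called without cKO replicate 1 (0.198% of genes). Non-classical monocytes had 20 of 36 members with both cKO libraries above both WT (15.9% of all genes), led by Ifit2 at 148, 165, 201 and 372 CPM (0.88 ± 0.24), and Irf7 at 811, 839, 1056 and 1826 CPM (0.81 ± 0.23). Their median fell from 0.46 to 0.16 without cKO replicate 2, where Ifit1 alone was called, and lower (−1.29, 0.171% of genes called); without WT replicate 2, 3 members were called higher (0.55% of genes).

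**Figure D4:**
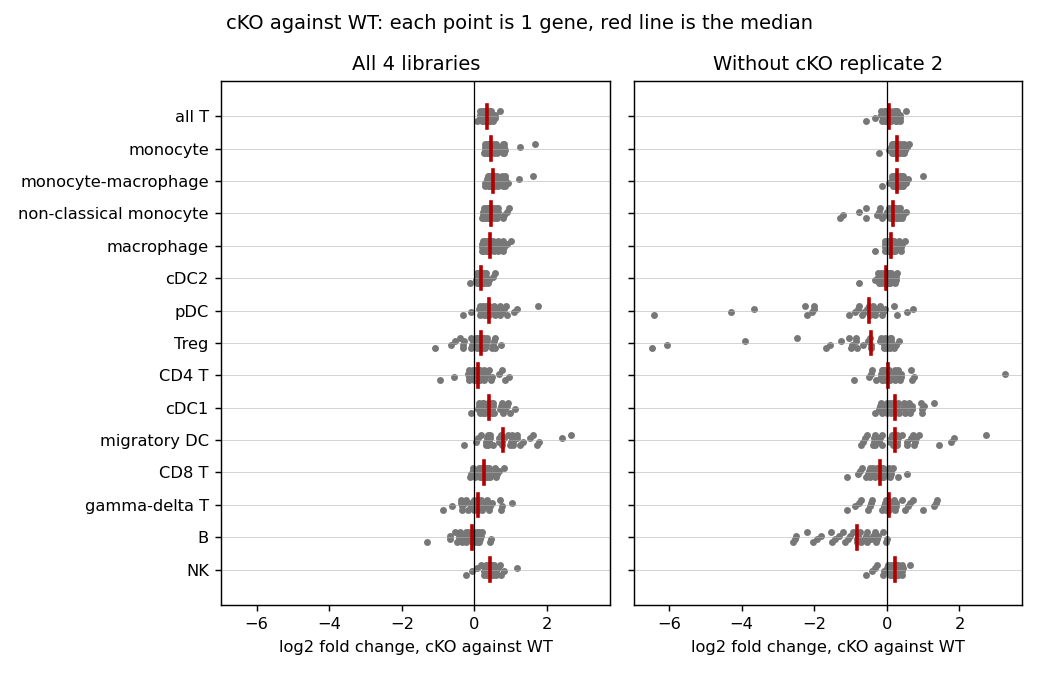
Log2 fold change, cKO over WT, of each interferon-stimulated gene (1 point per gene) in each gate, with all 4 libraries and without cKO replicate 2, and a bar at the median. Medians with all libraries are above 0 in every gate but B cells (−0.06) and drop in every gate without cKO replicate 2, below 0 in CD8 T, Treg, B, cDC2 and pDC.

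In T cells, the cells in which the title places the loss of Ufl1, the medians over the members were 0.09 to 0.34. Over the wide T gate Oasl2 was at 54.7, 51.7, 79.8 and 84.3 CPM (0.56 ± 0.13, adjusted p = 1 by edgeR), Oas1a at 58.3, 52.8, 75.1 and 95.2 CPM (0.56 ± 0.16) and Slfn5 at 55.4, 52.1, 72.5 and 74.9 CPM (0.39 ± 0.13). In these 3 both cKO libraries were above both WT libraries, and so they were for 22 of 36 members, against 21.1% of all genes. The median over the 36 was 0.34 and fell to 0.05 without cKO replicate 2, when 21 members were higher and 15 lower. In CD8 T cells Slfn5 was at 31.9, 29.5, 47.7 and 50.4 CPM (0.59 ± 0.17) and Oasl1 at 19.8, 18.8, 22.8 and 47.3 CPM (0.82 ± 0.33). For Oasl1, cKO replicate 1 stood near the WT libraries. Both cKO libraries lay above both WT libraries for 7 of 36 CD8 T members, against 24.6% of all genes. The CD8 T median was 0.27 and turned to −0.19 without cKO replicate 2, when 26 of 34 members were lower.

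In CD4 T cells Oasl1 had the smallest p and was lower in cKO: it was at 72.6, 58.4, 34.8 and 33.5 CPM (−0.95 ± 0.27, adjusted p = 0.973 by edgeR), with both cKO libraries below both WT libraries. Ifit3b, at 36.3, 38.3, 60.6 and 90.1 CPM (0.95 ± 0.30), and Oas3, at 42.3, 51.1, 79.5 and 82.4 CPM (0.76 ± 0.25), were higher in cKO without overlap. None of the 3 passed the adjusted threshold. Both cKO libraries lay above both WT libraries for 9 of 34 members, against 18.7% of all genes, and below them for 1, against 13.8%. The macrophage genes Apoe, Mrc1 and Adgre1 were at 74.6, 76.6, 343 and 196 CPM in the CD4 T gate, higher in both cKO libraries, and their part in these values was not tested. The CD4 T median was 0.11, and without WT replicate 2 only Ifi27l2a was called (0.204% of genes). Treg cells, where WT replicate 2 was highest for 12 of 33 members, had a median of 0.17 that turned to −0.44 without cKO replicate 2. Both cKO libraries lay above both WT for 1 of 33 Treg members, against 13.8% of all genes. They had 0 members at an unadjusted p under 0.05 in the fit of all libraries, and 3 called higher without WT replicate 2 (Ifi27l2a, Slfn1 and Cmpk2, 0.709% of genes). Gamma-delta T cells, with a median of 0.09 and both cKO libraries above both WT for 3 of 31 members (11.5% of all genes), also had 0 members at an unadjusted p under 0.05; Ifit1 was called without WT replicate 2 (0.177% of genes), and Ifi27l2a and Ifit1 without cKO replicate 2 (0.734% of genes).

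NK cells had the lowest levels, and here too most log2 fold changes were above 0. Oasl1 was at 30.1, 36.6, 45.4 and 77.8 CPM (0.81 ± 0.23), Ifit1 at 20.9, 24.4, 31.8 and 42.4 CPM (0.65 ± 0.19) and Stat2 at 26.0, 25.3, 35.4 and 40.2 CPM (0.50 ± 0.15), with an adjusted p of 1 by edgeR. All 3 had both cKO libraries above both WT libraries, as had 20 of 35 members, against 20.8% of all genes. The median was 0.43, and 0.23 without cKO replicate 2. The calls depended on single libraries: without WT replicate 2, 16 members were called higher (0.685% of genes), led by Usp18 at 1.22, and without cKO replicate 1, 3 (0.327%).

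In B cells the members with the smallest p were lower in cKO. Rsad2 was at 84.5, 118, 16.9 and 57.3 CPM (−1.30 ± 0.53) and Oasl2 at 51.0, 49.1, 21.1 and 36.5 CPM (−0.67 ± 0.33), both with an adjusted p of 1 by edgeR. Both cKO libraries were below both WT libraries, and cKO replicate 1 was the lowest. This held for 4 members, against 19.1% of all genes, and 0 members had both cKO libraries above (10.6%). The median was −0.06. Without cKO replicate 2 all 34 tested members were lower, with a median of −0.82, and Rsad2 (−2.54), Isg15 (−2.04) and Ifit1 (−2.51) were called (0.49% of genes). The macrophage genes Apoe, Mrc1 and Adgre1 had a UMI in 48.4% of B-gated cells, at 473, 409, 537 and 344 CPM, highest in cKO replicate 1, and their part in these values was not tested. The lowest B library was cKO replicate 1, in which Isg15 was at 76.1 CPM against 231 to 437 CPM in the others.

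The 4 dendritic gates had medians above 0 with all libraries. In migratory DC, Oasl1 was at 98.5, 103, 273 and 355 CPM (1.61 ± 0.23; adjusted p = 0.163 by edgeR, 0.00665 by DESeq2) and Irf7 at 397, 298, 643 and 1142 CPM (1.33 ± 0.29), both without overlap. Both cKO libraries were above both WT for 15 of 35 members, against 17.1% of all genes. The median of 0.79 fell to 0.22 without cKO replicate 2, in which Oasl1 (1.45) and Irf7 (0.90) were the 2 members called (0.857% of genes); without cKO replicate 1 there were 17 (1.86%). In cDC1, Slfn1 was at 52.2, 46.2, 95.7 and 100.3 CPM (0.98 ± 0.21, adjusted p = 0.704 by edgeR) and Ifit3 at 86.7, 74.6, 153 and 135 CPM (0.83 ± 0.19), and in both genes the cKO libraries stood apart from WT and close to each other. This order held for 23 of 34 cDC1 members, against 16.3% of all genes; 2 members were called without WT replicate 2 (0.439%) and 3 without cKO replicate 1 (0.342%). cDC2 had a median of 0.18 and 3 members at an unadjusted p under 0.05, Oas2, Herc6 and Stat2, and both cKO libraries lay above both WT for 6 of 36, against 19.1% of all genes. In pDC the median was 0.41 and turned to −0.49 without cKO replicate 2, with Phf11d, Rsad2 and Rtp4 called lower (0.799% of genes), whereas 10 members were called higher without cKO replicate 1 (0.684%). Both cKO libraries lay above both WT for 4 of 32 pDC members, against 15% of all genes. By the summed level in pDC, therefore, the cKO libraries lay on opposite sides of WT.

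The difference of the cKO effect between the wide T gate and macrophages was tested as a genotype by gate term, each library being its own block, over 11826 genes. It was called for 0% of genes by edgeR (301 at an unadjusted p under 0.05) and for 0 members, 3 of them at an unadjusted p under 0.05; DESeq2 was not run for this test. The effect was smaller in T cells for 30 of the 36 members, at a median difference of −0.11, against −0.02 over all genes. Single libraries moved this. The count was 20 at a median of −0.03 without WT replicate 2, where the median of all genes was 0.02. It was 23 at −0.09 without cKO replicate 2 (all genes −0.04) and 30 at −0.22 without cKO replicate 1 (all genes 0.01). Ifit1bl1 differed most, by −0.78 ± 0.20 (adjusted p = 1). A p above the threshold does not show that T cells and macrophages responded alike.

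Other interferon-related lists lay on the same side in most of these gates. Of 54 other interferon-induced genes tested in monocytes, 54 had a log2 fold change above 0, 30 at an unadjusted p under 0.05 and 0 called, at a median of 0.42. In all T cells it was 49 of 54 (median 0.30, 0 called), in NK cells 40 of 50 (0.26) and in B cells 19 of 41 (−0.03). The interferon gamma list, which holds Ifng and genes that its product induces, had a median of 0.59 in monocyte-macrophages, with 18 of 19 higher. It held a gene that was called there: the GTPase Iigp1, at 16.7, 13.4, 37.2 and 46.6 CPM (1.51 ± 0.17, adjusted p = 0.0234 by edgeR). Without WT replicate 1 its adjusted p was 0.0848 (log2 fold change 1.61), and it was called without each of the other libraries. In monocytes Iigp1 was at 8.33, 7.17, 21.4 and 32.3 CPM. Ifng itself was at 249.9, 250.4, 355 and 345 CPM in all T cells and at 163, 184, 271 and 327 CPM in NK cells, with both cKO libraries above both WT. In T cells the same list had a median of 0.14 (15 of 17 higher). The receptor and signalling list stayed nearer to 0, at 0.11 in monocytes (9 of 10 higher) and 0.08 in all T cells (7 of 10 higher).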

How the data were processed

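Single-cell RNA counts of CD45-positive cells were read for 2 WT and 2 cKO libraries, which were grouped by their labels. The deposited values are raw UMI counts per gene and barcode, made by the authors with Cell Ranger 6.1.1, per the file headers; CASAVA 1.8 and Seurat are named in the submitters' processing notes, and the genome build is not given in the sources used here. Each of the 36 genes was matched by feature symbol. The members and gene lists were chosen with earlier results of these data known.

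From the deposited counts, barcodes were dropped below 300 genes or above 15% mitochondrial UMIs, and cells were gated at 2 UMIs of the markers. Cells with 2 or 3 UMIs of their markers made up 2.51% (B) to 47.6% (cDC1) of a gate. Counts were summed per library and gate, with at least 20 cells, and tested with edgeR 4.0.16 (TMM scaling, filterByExpr, quasi-likelihood test, Benjamini-Hochberg threshold 0.05) in R 4.3.3, with DESeq2 1.42.0 as an alternative. CPM is the member's summed UMIs per 1000000 UMIs of all genes in the gate. Cells thinned to 3000 UMIs gave the per-cell values (Python 3.11.15, numpy 2.4.6, scipy 1.17.1, pandas 2.3.3). The other alternatives were other scaling, no filter on low counts, stricter gates (3 UMIs), a replicate block, each library left out, thinning to 1500 or 5000 UMIs and, added after the data were seen, leaving out the shared barcodes. Scripts were tested on simulated data. All members could be named; for cKO against WT those with the 5 smallest p in a gate, and outside the list those that passed a test, stand for a role or are most like the members' sum. Intervals and floors cover counting error only. Some results on a gene outside the members are not reported here.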

Additional observations from a re-analysis of the deposited data

Results flagged for a closer look

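For 5 gene and gate pairs both cKO libraries lay below both WT libraries, while the same gene had both cKO libraries above both WT libraries in other gates. Rsad2 in B cells had a log2 fold change of −1.30, against both above in 3 gates (monocyte, monocyte-macrophage and macrophage). Oasl1 in CD4 T cells had −0.95, against both above in 7 gates. That order held for 4 of 35 members in B cells, where it held for 19.1% of all genes, and for 1 of 34 in CD4 T cells, against 13.8%. In B cells Oasl2 had −0.67 and Slfn5 −0.53, each against 6 gates, and Ifi35 had −0.19 against 5 gates. The difference between the gates was not tested for these 5 pairs.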

How the results depend on the processing

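With all libraries and edgeR, 0 members were called for cKO against WT in each gate, and this held with other size factors, with library totals alone, with the stricter gate and without the shared barcodes. Without a filter on low counts the numbers called were 3 in NK (0.321% of all genes), 2 in B (0.884%), 15 in monocyte (1.13%), 1 in non-classical monocyte (0.122%), 16 in monocyte-macrophage (1.04%), 9 in macrophage (0.389%), 3 in cDC1 (0.253%), 8 in migratory DC (0.28%) and 3 in pDC (0.183%). DESeq2 called 2 in monocyte-macrophage and 1 in migratory DC. Leaving out 1 library gave 0 to 3 in B, 0 to 1 in CD4 T, 0 to 16 in NK, 0 to 3 in Treg, 0 to 3 in cDC1, 0 to 2 in gamma-delta T, 0 to 7 in macrophage, 0 to 17 in migratory DC, 0 to 7 in monocyte, 0 to 15 in monocyte-macrophage, 0 to 3 in non-classical monocyte and 0 to 10 in pDC, where 0.171% to 1.86% of all genes were called in each fit that called a member; the group left with 1 library was assumed to vary like the other. The causes were not tested.

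With the replicate block, 2 members were called in NK (0.122% of all genes), 15 in monocyte (1.36%) and 13 in monocyte-macrophage (0.68%), and 0 elsewhere. The correlation of the deviations of same-numbered libraries was −0.10 to 0.21 by gate over all genes. Over the members it was 0.59 in monocyte, 0.38 in monocyte-macrophage and 0.30 in NK, where 30 of 36, 32 of 36 and 30 of 35 members were higher in replicate 2 of both groups. The numbers form only 2 pairs and the labels do not tie them, so they were not taken as pairs.

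The median log2 fold change was 0.62 in CD4 T with the stricter gate, 0.27 in cDC1 with the stricter gate and 0.49 in cDC1 without the shared barcodes. It turned to −0.14 in gamma-delta T with the stricter gate, with 8 of 26 members higher, and was −0.22 in B with the replicate block. Leaving out 1 library gave −0.82 to 0.34 in B, −0.038 to 0.31 in CD4 T, −0.19 to 0.53 in CD8 T, 0.045 to 0.53 in all T, 0.24 to 0.50 in cDC1, −0.31 to 0.63 in gamma-delta T, 0.22 to 1.18 in migratory DC and −0.49 to 0.95 in pDC.

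Members higher than in the other gates numbered 2 in CD8 T, 16 in CD4 T and 6 in Treg with library totals alone (47.7%, 37.7% and 40.4% of all genes), 1 in CD8 T and 2 in Treg without the filter (23.6% and 13.9%), 1 in CD8 T and 3 in Treg with the stricter gate (38.1% and 22.5%), and 2 in Treg with other size factors or without the shared barcodes (25.9% and 23.9%). Members lower numbered 3 in CD4 T, 7 in macrophage and 9 in migratory DC with library totals alone (11.6%, 37.6% and 31.3%), 2 in macrophage and 9 in migratory DC without the filter (12.9% and 13.3%), and 5 in CD4 T and 8 in migratory DC with the stricter gate (14.8% and 23.3%). Leaving out 1 library gave 0 to 1 higher in CD8 T, 1 to 2 in Treg and 3 to 6 in pDC, and 2 to 9 lower in CD4 T, 3 to 7 in migratory DC and 0 to 1 in monocyte, where 18.3% to 34.3% of all genes were higher and 15% to 32.5% lower in these fits. The monocyte to NK ratio was 3.54 at 1500 UMIs and 2.82 at 5000 UMIs. With 2 libraries a group, small gates and low counts limit what can be called.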

Other observations

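Some members differed by the replicate number of the labels. Both replicate 2 libraries lay above both replicate 1 libraries for Dtx3l in 13 of 14 gates, for Parp9 in 11, for Isg15 in 10 and for Rtp4 in 9, and none of these 4 genes had the opposite order in any gate. The other 32 members had this order in 1 to 8 gates, with Samd9l in 2 and Slfn4 in 1. By gate, the order held for 29 of 33 members in Treg, 28 of 36 in cDC2 and 22 of 35 in B cells, against 15.4%, 17.7% and 13.1% of all genes, but for 2 of 36 in monocytes, against 16.5%. The genes and gates were chosen after their values were seen, the labels do not say what the numbers share, and the pattern was not tested.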
